A study of Drosophila melanogaster with 9 samples.

Results

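The genes of the proteasome, the protein complex that degrades ubiquitin-tagged proteins, were followed in the guts of adult flies on 3 diets. Members were the genes whose names in the deposited tables begin with Prosalpha or Prosbeta, or with Pros, Rpn or Rpt and a digit, which gave 29 of 10245 genes. Of these, 28 reached at least 1 RPKM (reads per kilobase of transcript, scaled to library size) in at least 3 of the 9 libraries and were tested together with all 8036 genes that did so. They comprised 7 genes of the alpha ring, 6 of the beta ring, 5 of the ATPase ring and 10 of the non-ATPase part of the cap. The remaining member, Rpt3R, a relative of the ATPase gene Rpt3, lay below that level in every library. The subunits Prosbeta4, Rpt5, Rpn8, Rpn13 and Sem1 and the variant Prosalpha1R appeared under names that the rule did not catch (CG17331, Tbp-1, Mov34, CG13349, CG13779 and CG30382), and these 6 genes were counted apart. By the gene names of the BDGP6.54 annotation, the 29 members lay on every major chromosome arm, with 3 on 2L, 8 on 2R, 5 on 3L, 9 on 3R and 4 on X, and 8 of them carried older names.

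The proteasome consists of a barrel-shaped core, in which outer rings of alpha subunits gate the entry and inner rings of beta subunits hold the proteolytic sites, and of a cap on either end. The cap binds ubiquitin chains, removes them and threads the unfolded protein into the core by means of a ring of ATPases, the Rpt subunits, beside scaffold, receptor and lid subunits named Rpn. The subunits are needed in equal or near-equal numbers, and in flies the transcription factor Cnc is known to raise the transcription of their genes when proteasome function is impaired.

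The RNA came from entire guts dissected from adult Drosophila melanogaster females of the wild-type strain Oregon R, which carried no transgene or mutant allele named in the labels. The females were fed standard medium, a complete food, or 10% glucose, or agar, which offers no nutrient, and each of the 3 diets had biological repeats numbered 1 to 3, so that 9 libraries were compared. The age of the flies and the time on each diet were not given in the sources used here, nor whether a repeat number stood for a shared day or culture, so p-values measure the spread between these libraries. The libraries held 34899709 to 48389188 reads as recovered from the values. The markers of gut enterocytes (alphaTry, betaTry and 5 further genes) summed to between 11274 and 23462 RPKM. Those of ovary, 2 of 4 listed genes measured, summed to at most 0.083 RPKM except for 2.33 in glucose repeat 2. The 1 testis marker measured, betaTub85D, lay between 0.031 and 0.12 RPKM. Fat body markers, 3 of 5 listed genes measured, summed to between 219 and 332 RPKM, and 3 Malpighian tubule markers to between 3.40 and 5.15 RPKM. Most genes lay lower on standard medium as the values were deposited: the factor by which median-ratio scaling (which divides every library by the median of its genes' ratios to their geometric means) would shift a library was 0.091 to 0.16 log2 units for the 6 agar and glucose libraries and -0.19 to -0.28 for the 3 standard libraries. Diet differences are therefore given as deposited and after this scaling. After scaling, agar repeat 3 held the highest value of 2005 and the lowest of 1930 of the 8036 tested genes, more of each than any other library. The subunit genes too stood apart there from the other 2 agar libraries, so the comparisons with agar are given with and without it. In the BDGP6.54 annotation 11 of the 28 tested members overlap exons of a gene on the opposite strand, by at most 182 bases, and the strand setting of the counting was not given in the sources used here, so reads in such stretches cannot be assigned to either gene. Because whole guts were sequenced, fewer cells of a type and less RNA per cell cannot be told apart.

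The subunit mRNAs lay in a narrow band of fairly high levels. Over the 9 libraries the mean level of the 28 genes ran from 15.6 RPKM for Rpn1, a scaffold subunit of the cap, to 42.6 RPKM for Prosbeta5, the subunit with the chymotrypsin-like site, a 2.74-fold range. Their median was 26.8 RPKM, against 5.71 RPKM for all tested genes, and they stood between the 75.0th and the 88.6th percentile of those genes. The coefficient of variation over the 9 libraries was 14.03% to 22.7% (median 18.3%), near the median of 19.7% over all tested genes. For the 14 members whose values returned whole reads in all 9 libraries, the lowest count was 772 reads, for which the counting error is 3.6%.

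**Figure D1:**
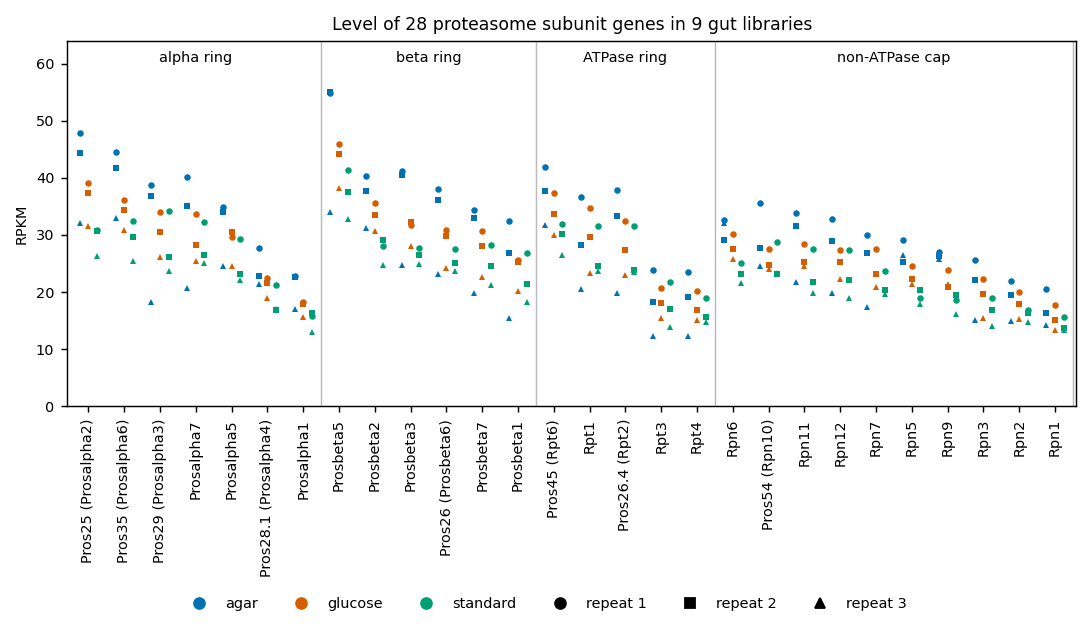
Level in RPKM (vertical axis, linear, from 0) of the 28 tested proteasome subunit genes, grouped by their place in the complex and ordered by mean level; each point is 1 of 9 libraries, coloured by diet and shaped by repeat number, and older names are followed by the current subunit name. Mean levels run from 15.6 (Rpn1) to 42.6 RPKM (Prosbeta5), and the agar points of repeat 3 (blue triangles) are the lowest of their gene's 3 agar points in 26 of 28 genes.

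In the alpha ring the median level was 29.7 RPKM. Its most abundant transcript was that of Pros25 (current name Prosalpha2), with 47.9, 44.4 and 32.0 RPKM on agar, 39.1, 37.4 and 31.5 RPKM on glucose and 30.9, 30.6 and 26.3 RPKM on standard medium for repeats 1, 2 and 3 in turn. The lowest deposited values were those of Prosalpha1, with 22.8, 22.7 and 17.0 RPKM on agar, 18.2, 17.97 and 15.7 RPKM on glucose and 15.8, 16.3 and 12.96 RPKM on standard medium. In both genes all 3 agar values lay above all 3 standard values, while agar and glucose overlapped. The values of Prosalpha1 and of its near copy CG30382 (Prosalpha1R) kept a ratio of 0.991 in all 9 libraries, as where reads that match both copies are divided between them. Their levels therefore cannot be told apart, and the place of Prosalpha1 within the ring cannot be ranked.

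In the beta ring, which carries the proteolytic sites, the median was 29.8 RPKM. Prosbeta5 gave 54.8, 54.9 and 33.9 RPKM on agar, 45.9, 44.2 and 38.1 RPKM on glucose and 41.4, 37.5 and 32.7 RPKM on standard medium. The agar value of repeat 3 fell among the standard values, and the diets overlapped. Prosbeta1, with the caspase-like site, was lowest in this ring, with 32.5, 26.9 and 15.5 RPKM on agar, 25.6, 25.2 and 20.2 RPKM on glucose and 26.9, 21.5 and 18.3 RPKM on standard medium, and its agar value of repeat 3 was the lowest of all 9.

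The ATPase ring had a median of 28.09 RPKM. Pros45 (Rpt6) was highest, with 41.8, 37.6 and 31.7 RPKM on agar, 37.3, 33.6 and 29.9 RPKM on glucose and 31.9, 30.1 and 26.6 RPKM on standard medium. Rpt4 was lowest, with 23.6, 19.2 and 12.3 RPKM on agar, 20.2, 16.8 and 15.1 RPKM on glucose and 19.0, 15.6 and 14.7 RPKM on standard medium. In Rpt4 the values of repeat 1 were the highest and those of repeat 3 the lowest within each diet, and the diets overlapped fully.

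The non-ATPase subunits of the cap had the lowest median, 23.1 RPKM. Rpn6, a lid subunit that clamps the cap onto the core in yeast, was highest with 32.5, 29.1 and 32.2 RPKM on agar, 30.1, 27.6 and 25.7 RPKM on glucose and 25.1, 23.2 and 21.6 RPKM on standard medium. Rpn1 was lowest, with 20.6, 16.4 and 14.3 RPKM on agar, 17.8, 15.1 and 13.3 RPKM on glucose and 15.6, 13.6 and 13.4 RPKM on standard medium. The 3 agar values of Rpn6 all lay above its 3 standard values, whereas those of Rpn1 overlapped.

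The variant Rpt3R was barely detected. Its values were 0.0832, 0.151 and 0.331 RPKM on agar, 0.120, 0.168 and 0.142 RPKM on glucose and 0.0798, 0.104 and 0.0872 RPKM on standard medium, against 17.9 RPKM for the mean of Rpt3, so it was not tested. In flies most variant subunits are known from the testis, and the 1 testis marker measured lay near 0 as well. Of 16 subunit variants listed, 14 were not analysed here.

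The first question was whether sugar alone altered the subunit mRNAs relative to a diet without nutrients. Between glucose and agar 0 of 28 members were called by limma at an adjusted p under 0.05, where 0.286% of all tested genes were called, and 2 passed at an unadjusted p. The median member difference (glucose minus agar, log2(RPKM + 1)) was -0.13, with 25 of 28 negative, against -0.022 for all tested genes; this scale understates the change of genes of low level. After median-ratio scaling 0 members were again called (0.149% of all genes), none had an unadjusted p under 0.05, and the median was -0.090.

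The members that lay lowest on glucose relative to agar were Rpn9 and Rpn5, both subunits of the lid, and Prosalpha1. Rpn9 gave 27.0, 26.3 and 25.8 RPKM on agar, 23.9, 20.9 and 21.5 RPKM on glucose and 18.5, 19.5 and 16.2 RPKM on standard medium. Its difference was -0.25 (SE 0.10, limma adjusted p = 0.439), with an interval from -0.48 to -0.013. For Rpn5 the difference was -0.24 (SE 0.10, limma adjusted p = 0.465) and for Prosalpha1 -0.25 (SE 0.14, limma adjusted p = 0.652). Rpn9 and Rpn5 were the 2 members whose glucose values all lay below their agar values, as did those of 10.5% of all tested genes. Only 3 members had positive differences, all small: 0.052 for Rpt1, 0.032 for Rpt3 and 0.015 for Pros29 (Prosalpha3). The interval for Pros29, from -0.61 to 0.64, leaves room for a difference in either direction. The median depended on single libraries in both directions. Without agar repeat 3, which stood apart as described below, all 28 differences were negative, with a median of -0.30, and 7 members had an unadjusted p under 0.05, but 0 were called (0.0251% of all tested genes). Without agar repeat 1 the median was -0.014 with 13 of 28 positive, and after scaling it turned to 0.036 with 21 of 28 positive. Without agar repeat 2, glucose repeat 3 or glucose repeat 1 it was -0.058, -0.047 or -0.19, and 0 members were called in each of these fits.

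Against standard medium, glucose did not give a called member either (0 of 28, against 22.2% of all tested genes). All 28 differences were positive, with a median of 0.17, below the median of 0.25 over all tested genes, and 3 members passed at an unadjusted p. Without glucose repeat 1 the median was 0.078 with 22 of 28 positive, and without standard repeat 3 it was 0.090 with 23 positive. After median-ratio scaling all 28 were negative instead, with a median of -0.14 against 0.0074, and again 0 were called (0.946% of all genes) and 0 passed at an unadjusted p. After quantile normalization the median was 0.0041 with 15 of 28 positive. No member was called there, where 29 of 8036 genes were called higher and 28 lower. The direction of the members' difference between glucose and standard medium thus followed the scaling.

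The 3 largest differences were those of Pros25, Rpn9 and Prosbeta2, the subunit with the trypsin-like site. Prosbeta2 gave 40.3, 37.6 and 31.3 RPKM on agar, 35.7, 33.5 and 30.7 RPKM on glucose and 28.07, 29.1 and 24.7 RPKM on standard medium. Its difference was 0.28 (95% confidence interval -0.013 to 0.57, limma adjusted p = 0.124). That of Pros25 was 0.29 (95% confidence interval -0.090 to 0.66, limma adjusted p = 0.202) and that of Rpn9 0.28 (95% confidence interval 0.046 to 0.51, limma adjusted p = 0.0724). After scaling these became -0.033, -0.024 and -0.025. With the repeat number as a block, these 3 members passed the threshold as deposited (adjusted p = 0.0384, 0.0492 and 0.0417 by limma), where 42.1% of all tested genes were called higher on glucose. In 6 members all glucose values lay above all standard values, as in 50.3% of all tested genes. After scaling, Pros54 (Rpn10), a ubiquitin receptor of the cap, was the 1 member whose groups did not overlap, with glucose the lower (log2 difference -0.28, limma adjusted p = 0.394), as in 15.1% of all tested genes.

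Agar against standard medium, no nutrient against a complete food, was the comparison in which members were called. As deposited, 7 of 28 members were higher on agar and 0 lower, below the 37.7% of all tested genes that were called higher on agar (39.9% in either direction). All 28 differences were positive, and their median of 0.30 was close to that of all tested genes, 0.28. After median-ratio scaling 0 members were called, 0 had an unadjusted p under 0.05, and the median was -0.043 with 9 of 28 positive, where 4.67% of all genes were called. Quantile normalization also gave 0 called members (4.33% of all genes), with 0 at an unadjusted p under 0.05 and a median of 0.040.

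The 7 called members were 3 lid subunits, 3 subunits of the alpha ring and 1 of the beta ring. Rpn9 rose from 18.1 ± 1.68 RPKM on standard medium to 26.36 ± 0.628 RPKM on agar (SD, n = 3), a difference of 0.53 (SE 0.10, limma adjusted p = 0.00817). Rpn5 was measured at 29.1, 25.3 and 26.5 RPKM on agar, 24.5, 22.3 and 21.4 RPKM on glucose and 19.0, 20.4 and 17.8 RPKM on standard medium, and rose by 0.48 (SE 0.10, limma adjusted p = 0.0108). Rpn6 rose by 0.41 (SE 0.11, limma adjusted p = 0.0184). These lid subunits had the smallest spread among their agar libraries, with a standard deviation of 0.628 RPKM in Rpn9, 1.95 in Rpn5 and 1.88 in Rpn6.

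Among the core subunits, Prosbeta2 rose from 27.3 ± 2.30 RPKM to 36.4 ± 4.65 RPKM (SD, n = 3), by 0.40 (SE 0.13, limma adjusted p = 0.0368). Prosalpha1 rose by 0.44 (SE 0.14, limma adjusted p = 0.0373), a value it shares with its near copy. Pros35 (Prosalpha6) gave 44.5, 41.7 and 32.9 RPKM on agar, 36.2, 34.4 and 30.8 RPKM on glucose and 32.4, 29.7 and 25.4 RPKM on standard medium, and rose by 0.43 (SE 0.15, limma adjusted p = 0.0452). Pros25 lay at the threshold, with 0.47 (SE 0.17, limma adjusted p = 0.0499). In each of the 7 called members and in Pros28.1 (Prosalpha4) all agar values lay above all standard values, which made 8 of 28 against 47.4% of all tested genes. No member of the ATPase ring was called, and the smallest differences were that of Rpt3, at 0.019 (95% confidence interval -0.52 to 0.56, limma adjusted p = 0.957), and that of Rpt1, at 0.071 (95% confidence interval -0.44 to 0.58, limma adjusted p = 0.817). After scaling Rpn9 kept the largest positive difference, 0.18 (limma adjusted p = 0.306), and was the 1 member whose groups did not overlap, with agar the higher, as in 12.6% of all tested genes.

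**Figure D2:**
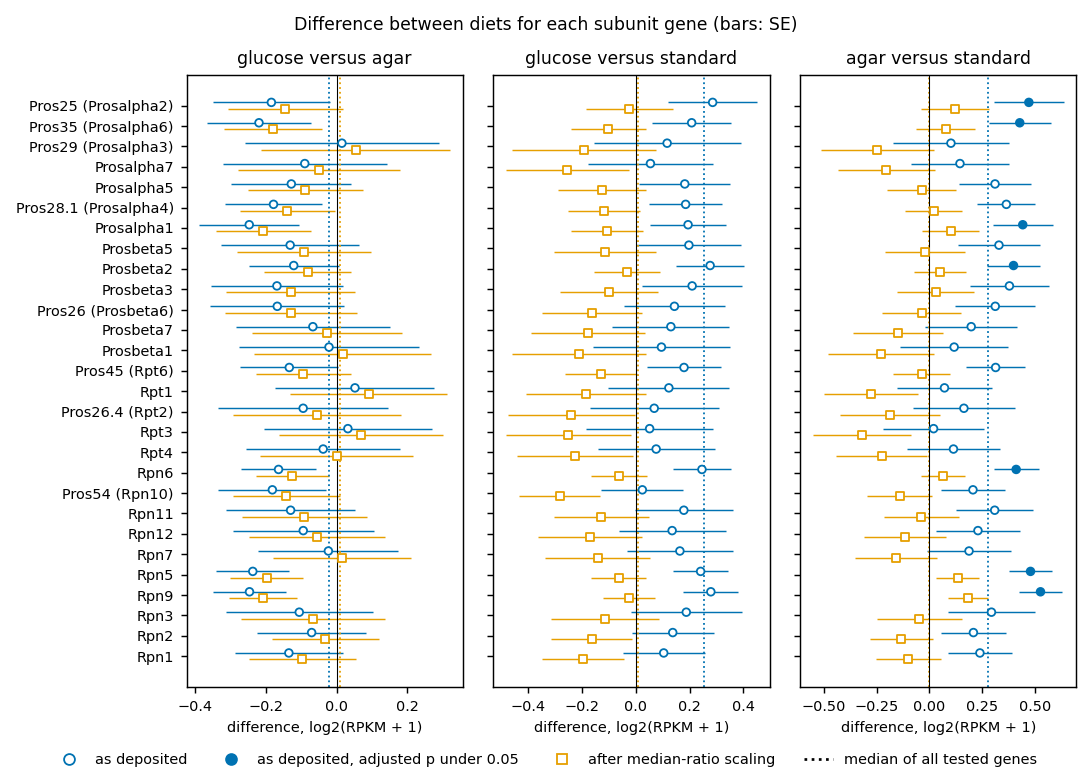
Difference between diets (horizontal axis, log2(RPKM + 1), bars 1 SE from limma) for each subunit gene in the 3 comparisons, first diet minus second; blue circles are values as deposited, filled where the adjusted p was under 0.05, orange squares are values after median-ratio scaling, and dotted lines mark the median of all tested genes. The 7 filled circles are all in the comparison of agar with standard medium, and after scaling the members' medians in the 3 comparisons were -0.090, -0.14 and -0.043.

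As deposited, the number of called members depended on 1 agar library and on whether repeats were paired. With the repeat number as a block 12 members (42.9%) were called higher on agar, against 51.0% of all tested genes. Without agar repeat 3, 14 members were called, against 33.9%. With the block and without that library together, 24 members (85.7%) were called, against 42.3%. Agar repeat 3 was singled out because the members lay low in it, so leaving it out raises their differences. The shares of both fits are therefore no test of the members. Without any other single library between 2 and 5 members were called, Rpn5 and Rpn9 among them each time. In these fits 1591 to 3042 of all tested genes were called higher on agar. Beside the 2 members without standard repeat 3 they were 1688 of 8013. Leaving out standard repeats 2 and 3 together left 1 standard library. The median was then 0.11 with 19 of 28 positive, against 0.25 over all tested genes. After median-ratio scaling 0 members were called with the block, where 14.4% of all tested genes were and 2 members had an unadjusted p under 0.05. Scaled and without agar repeat 3, 0 were called (3.47% of all tested genes), 1 had an unadjusted p under 0.05, and the median was 0.091 with 25 of 28 positive.

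What the members shared beyond their names was a pattern over the repeats. Within each diet, the library of repeat 1 tended to hold the highest value and that of repeat 3 the lowest. Repeat 1 was the highest of the 3 in 27 of 28 members on agar, in 26 on glucose and in 24 on standard medium, against 28.3%, 31.8% and 43.5% of all tested genes. Repeat 3 was the lowest in 26, 27 and 26 members, against 40.5%, 37.3% and 44.8%. The summed level of the 28 genes was 951 RPKM in agar repeat 1, 857 in repeat 2 and 624 in repeat 3. On glucose it was 808, 741 and 648 RPKM in the same order, and standard medium gave 733, 642 and 580 RPKM. The sum thus differed more between agar repeats 1 and 3 than between any diets within 1 repeat.

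**Figure D3:**
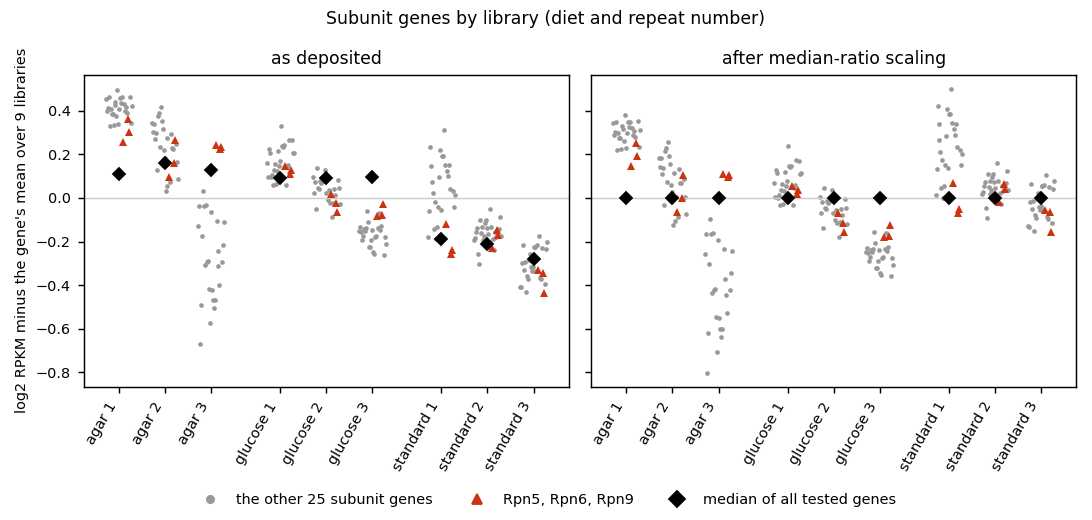
Deviation of each subunit gene from its own mean over the 9 libraries (vertical axis, log2 RPKM) in each library, as deposited (left) and after median-ratio scaling (right); grey points are 25 genes, red triangles Rpn5, Rpn6 and Rpn9, and black diamonds the median of all tested genes, which scaling sets to about 0. After scaling the members' medians were 0.30, 0.080 and -0.39 in agar repeats 1, 2 and 3, 0.061, -0.050 and -0.25 in the glucose and 0.22, 0.046 and -0.045 in the standard libraries.

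This pattern was noticed in the values and then examined in the same values, by the repeat term of the limma fit with the repeat number as a block. Repeat 1 lay above repeat 3 in all 28 members, with a median difference of 0.40 log2 units against 0.014 over all tested genes. At an adjusted p under 0.05, 11 members (39.3%) were higher in repeat 1 and 0 lower, where 6.28% of all tested genes were called higher. After median-ratio scaling 8 members (28.6%) were called, against 5.64%, with a median of 0.37, so this direction did not depend on that scaling. The calls depended on having all 9 libraries, for all genes as for members. Without any 1 library 0 to 7 members were called, against 0.113% to 5.10% of all tested genes. The fits with 0 were those without agar repeat 1 (0.113% of all tested genes) and without standard repeat 1 (0.922%). In these, 22 and 24 members had an unadjusted p under 0.05. The median stayed between 0.29 and 0.45 and all 28 differences stayed positive. The F test over all 3 repeats called 2 of 28 members, Rpn3 and Rpt3, and 4.95% of all tested genes. After median-ratio scaling it called 1 of 28, Rpt3, and 453 of 8036 genes. At this threshold the share of members called thus stood near that of all genes. As deposited, Rpt1 fell just short (limma F test, adjusted p = 0.0503). All members but Prosbeta2, Prosbeta3, Rpn5, Rpn6 and Rpn9 had an unadjusted p under 0.05 in this F test, for which the share of all genes was not computed. The contrast of repeat 1 with repeat 3 was picked after the pattern was seen.

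The ATPase ring had the largest class median, 0.59, with 4 of 5 members called; the difference between classes was not tested. Rpt3 gave 23.8, 18.2 and 12.4 RPKM on agar, 20.7, 18.03 and 15.5 RPKM on glucose and 21.8, 17.0 and 13.9 RPKM on standard medium, and its difference between repeats 1 and 3 was 0.63 (SE 0.11, limma adjusted p = 0.0188). Rpt1 gave 36.6, 28.3 and 20.6 RPKM on agar, 34.7, 29.6 and 23.3 RPKM on glucose and 31.6, 24.6 and 23.6 RPKM on standard medium, with a difference of 0.59 (SE 0.11, limma adjusted p = 0.0222). In both genes each value of repeat 1 exceeded each value of repeat 3 whatever the diet. Pros26.4 (Rpt2) and Rpt4 were the other called ATPases, with 0.59 (SE 0.14, limma adjusted p = 0.0395) and 0.54 (SE 0.12, limma adjusted p = 0.0378), and Pros45 fell just short with 0.32 (SE 0.083, limma adjusted p = 0.0501).

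In the cap, Rpn3, a lid subunit, gave 25.6, 22.0 and 15.2 RPKM on agar, 22.3, 19.7 and 15.5 RPKM on glucose and 19.0, 16.8 and 14.1 RPKM on standard medium and the smallest adjusted p of all members, with 0.54 (SE 0.091, limma adjusted p = 0.0186). Rpn12, the lid subunit that joins last during assembly in yeast, and the scaffold subunits Rpn1 and Rpn2 were also called, with differences of 0.50, 0.37 and 0.36. In the core, Prosbeta1, Prosbeta7 and Prosalpha7 were called, with 0.63 (SE 0.14, limma adjusted p = 0.0365) for the first. The largest difference, that of Pros29, missed the threshold at 0.64 (SE 0.17, limma adjusted p = 0.0510). Rpn9, Rpn5 and Rpn6 stood at the other end, with 0.13, 0.13 and 0.15. They were singled out after their values were seen, and they are also the 3 members with the smallest adjusted p between agar and standard medium.

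**Figure D4:**
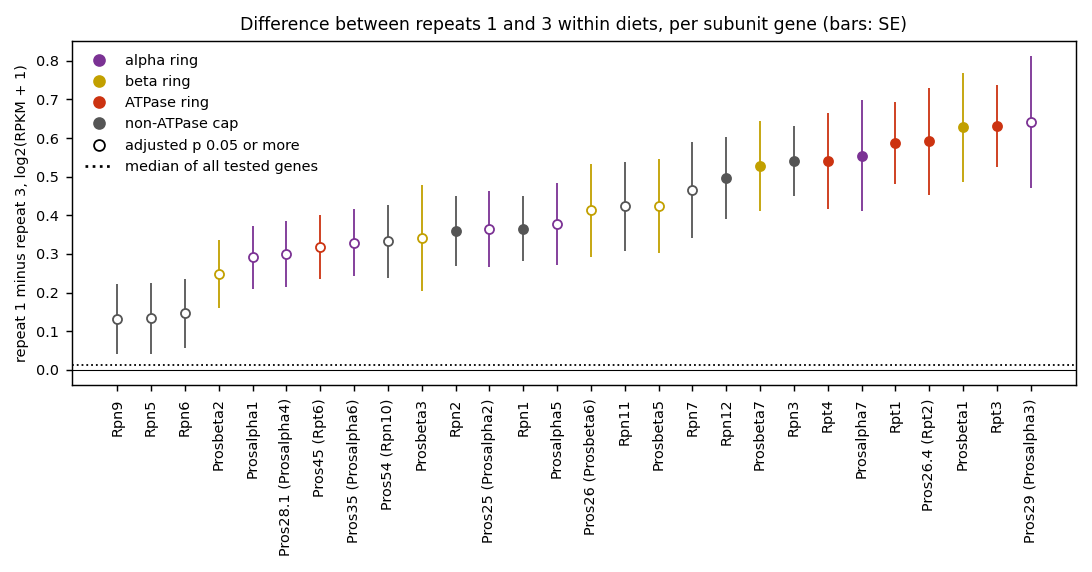
Difference between repeats 1 and 3 (vertical axis, log2(RPKM + 1), bars 1 SE) for each subunit gene from the limma fit with diet and repeat terms, ordered by size and coloured by place in the complex; filled points have an adjusted p under 0.05 and the dotted line is the median of all tested genes. All 28 points lie above 0, from 0.13 for Rpn9 to 0.64 for Pros29, and 11 are filled.

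Agar repeat 3 stood furthest from the other libraries of its diet, and not in the members alone. After median-ratio scaling it was the highest library for 2005 and the lowest for 1930 of all 8036 tested genes. Relative to the mean of agar repeats 1 and 2, and after median-ratio scaling, the members' log2 RPKM in that library had a median of -0.61, with 27 of 28 below 0. More than 0.5 log2 units lower were 16 members (57.1%), against 15.0% of all tested genes. The library was singled out because the members lay low in it, so these shares describe it and are no test of the members. With 1 library on one side the comparison also has no replicate check. Pros29 gave 38.8, 36.9 and 18.3 RPKM on agar, 33.9, 30.6 and 26.1 RPKM on glucose and 34.2, 26.1 and 23.6 RPKM on standard medium, and lay lowest at -1.04. Prosbeta1 followed with -0.93, and the medians of the rings were -0.48 for alpha, -0.70 for beta, -0.75 for the ATPases and -0.41 for the other cap subunits. Rpn5, Rpn9 and Rpn6 stood near 0, at -0.030, -0.044 and 0.070. That library held 43477728 reads, the most of the 3 agar libraries.

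Other complexes and gene lists were set beside the subunits in the same fits. The CCT chaperonin, the ring-shaped complex that folds actin and tubulin, held the same order of repeats: all 7 measured genes were called higher in repeat 1 than in repeat 3, with a median of 0.68, and in agar repeat 3 their median stood at -0.96. The COP9 signalosome, a relative of the lid that acts on ubiquitin ligases, had 1 of 8 genes called, with a median of 0.051 between the repeats and -0.12 in agar repeat 3. Of the ubiquitin genes and the enzymes that activate and conjugate ubiquitin 0 of 11 were called, with a median of 0.0065, and their median in agar repeat 3 was 0.028. The 7 shuttle and segregase genes, which carry or extract ubiquitylated proteins, had 6 higher in repeat 1, with 0 called and a median of 0.22, and their median in agar repeat 3 was -0.33. Among the 6 subunits under other names, all lay higher in repeat 1, with 2 called and a median of 0.29. After scaling 5 of those 6 lay higher and 0 were called, with a median of 0.27.

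**Figure D5:**
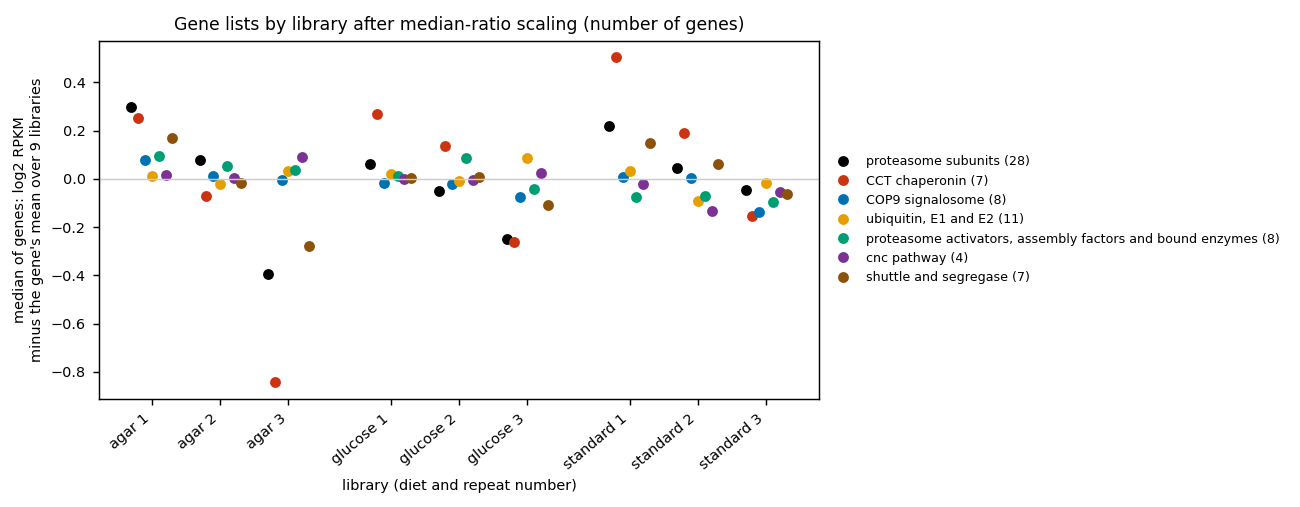
Median deviation of the genes of each list from their own mean over the 9 libraries (vertical axis, log2 RPKM after median-ratio scaling) in each library; numbers of genes are in parentheses. The subunits (black) and the CCT chaperonin (red) are highest in repeat 1 and lowest in repeat 3 of each diet, with -0.39 and -0.84 in agar repeat 3; the shuttle and segregase genes (brown) lie at -0.28 there, and the other 4 lists stay within 0.14 of 0 in every library.

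Markers of muscle, which forms the outer layer of the gut wall, also differed between repeats. Of 6 muscle markers 3 were called higher in repeat 1 than in repeat 3 (median 0.43), and their median deviation as deposited was 0.13 to 0.15 in repeat 1 of the 3 diets and -0.28 to -0.34 in repeat 3. The median of repeat 1 minus repeat 2 was -0.021 for these markers, against 0.16 for the members. That of repeat 2 minus repeat 3 was 0.45, against 0.28 for the members. Their summed level was 361 to 444 RPKM on agar, 326 to 461 on glucose and 315 to 423 on standard medium. Of 7 gut enterocyte markers 0 were called between repeats (median 0.16), and in agar repeat 3 they had a median of -0.62. The part of these tissue markers in the members' pattern was not tested.

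The wider ubiquitin-proteasome pathway was examined between agar and standard medium as deposited, where 37.7% of all tested genes were called higher on agar. Of the ubiquitin genes and the activating and conjugating enzymes 9 of 11 were higher on agar, for example Uba1, the activating enzyme, with 0.29 (SE 0.087, limma adjusted p = 0.0286), and the polyubiquitin gene Ubi-p63E with 0.43 (SE 0.15, limma adjusted p = 0.0480). Of 8 activators, assembly factors and bound enzymes 5 were higher, led by Uch-L3 (current name Uch-L5), a deubiquitinase of the cap, with 0.61 (SE 0.078, limma adjusted p = 0.00374), and by the proteasome regulator PI31 with 0.51 (SE 0.10, limma adjusted p = 0.00784). The other 3 were CG5384 (Usp14), REG and CG8858 (Ecm29), with differences of 0.36, 0.43 and 0.45. In the Cnc pathway 3 of 4 were higher: rngo (0.49), whose relative in mammals processes the counterpart of Cnc, the dimer partner maf-S (0.55) and the inhibitor Keap1 (0.34).

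Of the 7 shuttle and segregase genes 2 were higher, Ufd1-like (0.38) and Rad23 (0.42). Of 8 COP9 signalosome genes 7 were higher, with CSN5, the catalytic subunit, at 0.58 (SE 0.087, limma adjusted p = 0.00489), and of 7 CCT genes 0 were. The 6 subunits under other names had 3 called, CG17331 (Prosbeta4) with 0.56 (SE 0.095, limma adjusted p = 0.00589), CG13779 (Sem1) with 0.43 (SE 0.11, limma adjusted p = 0.0173) and the Prosalpha1 copy CG30382. After median-ratio scaling 0 of the 51 genes of these 7 lists were called in any of the 3 comparisons, and 4 had an unadjusted p under 0.05 between agar and standard medium. In the scaled fit with the block 5 passed the threshold between agar and standard medium, where 14.4% of all tested genes did: CSN5 and Uch-L3, higher on agar, and CSN6, Cct5 and CG7033 (a CCT subunit), lower. The share among the subunits was not tested against that in these lists.

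On glucose against standard medium, as deposited, the same lists had 4 of 11 (vih, RpS27A, Uba1 and UbcD2), 3 of 8 (PI31, Uch-L3 and REG), 2 of 4 (rngo and maf-S), 0 of 7, 2 of 8 (CSN3 and CSN5), 0 of 7 and 0 of 6 genes called, all higher on glucose, where 21.3% of all tested genes were. With the repeat number as a block these 11 calls became 22, and after scaling 0 with or without the block. The largest of these differences was that of RpS27A, which encodes ubiquitin fused to a ribosomal protein, at 0.54 (SE 0.14, limma adjusted p = 0.0313). Between glucose and agar 0 genes of any of these lists were called, and the smallest adjusted p among them was that of Uch-L3, with -0.29 (SE 0.078, limma adjusted p = 0.203).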

How the data were processed

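Libraries were made from TRIzol-extracted RNA with a stranded mRNA kit, per the labels' protocols. CASAVA 1.82, Bowtie2 2.1 and limma are named in the submitters' processing notes. The genome build, annotation and counting tool were not given in the sources used here. Each deposited value, as the authors made it, is a log2 RPKM per gene and library, with 0.5 reads added before the logarithm and the values of a gene's transcripts averaged on the log scale, as recovered from the values. The library totals of 34899709 to 48389188 reads were recovered in the same way, and 1 read per kilobase was worth 0.0207 to 0.0287 RPKM.

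The members and gene lists were chosen with earlier results of these data known. Values were converted to RPKM, and a gene was kept if 3 or more libraries reached 1 RPKM. limma 3.58.1 (R 4.3.3) was fitted to log2(RPKM + 1) over all 9 libraries with a mean per diet and a variance trend, and p-values were adjusted by Benjamini-Hochberg over all 8036 tested genes and called under 0.05. The fit without block or scaling was tested on simulated data with independent noise and planted changes larger than the members' differences between diets. Median-ratio scaling was tested on known factors. The block and the repeat term were not simulated. Names were matched to BDGP6.54, where 21 members had current and 8 older names. Repeat numbers come from the labels. Residuals correlated at 0.17 to 0.59 between libraries of the same repeat number and at -0.53 to 0.29 otherwise. The numbers were therefore taken to pair the libraries, and a fit with the number as a block was added. The residuals of a diet sum to 0, so positive values in some pairs force negative ones in others. The ranges also overlapped: agar repeat 3 with standard repeat 2 gave 0.29, agar repeat 2 with standard repeat 2 gave 0.17. Other alternatives were a pseudocount of 0.1, the deposited log2 scale, no filter or one of 5 RPKM, median-ratio scaling, quantile normalization, the 6 compared libraries alone, no variance trend and each library left out. The scaled fit without standard repeats 2 and 3, the blocked fit without agar repeat 3 and the test of the repeat term were chosen after the data had been seen. The members named with values were those called, those highest and lowest in each class, and the 3 largest differences in each direction per comparison; in each other list the called genes or the one with the smallest p. Further members named for the repeats were chosen after their values were seen. Protein and promoter sequences were not used here.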

Additional observations from a re-analysis of the deposited data

How the results depend on the processing

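Pseudocounts, the deposited log2 scale, the filters and the variance trend kept the members' counts and medians within 1.5 times of those reported, and scaling, pairing and single libraries did not. After median-ratio scaling the median member difference between glucose and standard medium was -0.14 (-0.28 without standard repeats 2 and 3), against 0.0041 after quantile normalization. That between agar and standard medium was -0.043 (-0.20 without those libraries), against 0.040 after quantile normalization. On glucose against standard medium, Pros25, Rpn9 and Prosbeta2 became -0.024, -0.025 and -0.033 after scaling (-0.068, -0.029 and -0.038 without standard repeats 2 and 3). Without those libraries and scaled, Pros35 and Rpn6 on agar against standard medium became -0.043 and -0.0071. Members called between agar and standard medium numbered 0 after median-ratio scaling, alone or with the block, and 0 after quantile normalization. They numbered 3 in the 6 compared libraries, beside 1886 of 7830 genes higher on agar. With the block they numbered 12, and 24 with the block and without agar repeat 3. On glucose against standard medium the block gave 3 members, and 4 without agar repeat 3. With the block and without agar repeat 3, Rpt1, Rpt3 and Pros29 on glucose against agar became -0.042, -0.081 and -0.22. The members higher in repeat 1 than in repeat 3 numbered 17 after quantile normalization, against 7.01% of all tested genes.

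Genes called between glucose and agar numbered 10 without a filter, 49 with a filter of 5 RPKM, 12 after median-ratio scaling, 11 after quantile normalization, 191 with the block, scaled or not, 2 in the 6 compared libraries, 36 with no variance trend, 2 without standard repeats 2 and 3, scaled or not, and 47 with the block and without agar repeat 3. Between glucose and standard medium they numbered 1113 with the stricter filter, 76 after median-ratio scaling, 57 after quantile normalization, 3676 with the block, 437 with block and scaling, 0 without standard repeats 2 and 3, 1 when also scaled, and 4337 with the block and without agar repeat 3. Between agar and standard medium they numbered 2063 with the stricter filter, 375 after median-ratio scaling, 348 after quantile normalization, 1156 with block and scaling, 2006 in the 6 compared libraries and 0 without standard repeats 2 and 3, scaled or not. With all 9 libraries each diet held each repeat once, so the block could not change a difference or its direction, only its p. It kept the 7 members called between agar and standard medium, and gave 0 members between glucose and agar. The cause of these shifts was not tested, beyond the fewer libraries or genes that some settings hold.

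Leaving out each library in turn gave 2 to 14 members called between agar and standard medium as deposited, and 0 after median-ratio scaling. As deposited, it gave 0 to 7 called higher in repeat 1 than in repeat 3, against 0.113% to 5.10% of all tested genes. As deposited, the median member difference ran from -0.30 to -0.014 between glucose and agar, from 0.16 to 0.44 for agar and from 0.078 to 0.25 for glucose against standard medium. After scaling it ran from -0.26 to 0.036, from -0.19 to 0.091 and from -0.23 to -0.054 in the same order. The ranges that follow pool deposited and scaled fits, so they do not separate single libraries from the scaling. On glucose against standard medium Pros25 ran from -0.086 to 0.38, Rpn9 from -0.081 to 0.33 and Prosbeta2 from -0.084 to 0.33. On agar against standard medium Pros25 ran from -0.0023 to 0.64, Pros35 from -0.019 to 0.55 and Prosbeta2 from -0.037 to 0.50. On glucose against agar Pros29 ran from -0.32 to 0.25, Rpt1 from -0.15 to 0.29 and Rpt3 from -0.20 to 0.29. Genes called numbered 1 to 107 between glucose and agar, 9 to 2736 between glucose and standard medium and 103 to 3239 between agar and standard medium. Depth gives a counting error of 3.6% at 772 reads, the lowest count among the 14 members whose values returned whole reads; it was not computed for the other 14.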
